A study of Mus musculus with 6 samples.

Results

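The vascular basement membrane genes described here are Col4a1, Col4a2, Lama4, Lama5, Lamb1, Lamc1, Nid1, Nid2, Hspg2 and Fn1, which were found by their gene symbols and make up 10 of the 49315 genes in the count table. They were measured by RNA sequencing in bEND.3 cells, an immortalized endothelial cell line from mouse brain. The cells had been transfected, using Lipofectamine 2000, with an antisense LNA GapmeR against the long non-coding RNA Gm39822 at 100 nM (GapmeR, 4 samples) or with a negative control LNA GapmeR at 100 nM (negative control, 2 samples). GapmeRs are antisense oligonucleotides with a central stretch of DNA, through which RNase H cuts the paired RNA. The time from transfection to RNA isolation was not given in the sources used here. Both groups are of 1 cell line, and the labels do not say whether samples of a group came from separate cultures, so p-values measure the spread between these samples, which may be technical.

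Endothelial cells rest on a thin sheet of matrix that they secrete in part themselves. A network of collagen IV, each triple helix of which joins 2 chains from Col4a1 with 1 from Col4a2, and a network of laminin, built as trimers of an alpha, a beta and a gamma chain, are tied together by nidogens and by the heparan sulfate proteoglycan perlecan, while fibronectin is laid down early and during remodelling. In brain vessels this sheet is shared by endothelial cells, pericytes and the end feet of astrocytes, and endothelial cells are known for the laminin alpha4 and alpha5 chains.

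The libraries held 30264086 to 37117934 counts after the GapmeR and 29261988 and 34266811 with the negative control. Gm39822 itself had 1 to 4 counts after the GapmeR and 61 and 56 counts with the negative control. Endothelial marker genes were abundant in every sample, with a summed level of 6969 to 8020 CPM after the GapmeR and of 9125 and 9391 CPM with the negative control, where CPM are counts scaled to the size of the library after TMM normalisation. Of the 13 endothelial markers, 8 fell and 1, Erg, rose. These counts, and those of the other markers below, stand beside 20.0% of all genes tested that fell and 25.4% that rose (edgeR). All 13 endothelial markers had a mean of at least 5 CPM, a level at which 29.0% of all genes fell and 22.8% rose. The cadherin gene Cdh5, the most abundant of the endothelial markers, fell from 2463 ± 112 to 1733 ± 175 CPM. Means here and below are given with the SD over 4 GapmeR and 2 negative control samples. In such bulk samples fewer cells of a type and less RNA per cell cannot be told apart. The 11 mural cell markers summed to 10.7 to 15.6 CPM after the GapmeR and 2.51 and 2.74 CPM in the negative controls. Of these, Abcc9, Cnn1 and Des had too few counts to be tested and 3 rose, Myh11 from 8 and 10 counts to between 182 and 210, Notch3 from 10 and 11 counts to between 70 and 79 and Tagln from 8 and 24 counts to between 57 and 86, all named after their values were seen. Markers of macrophages summed to 209.6 to 389 CPM after the GapmeR and to 174 and 179 CPM with the negative control, and those of fibroblasts to 17.2 to 23.4 CPM in GapmeR samples 1, 2 and 4, 92.7 CPM in GapmeR 3 and 16.0 and 17.6 CPM in the negative controls. Of 11 macrophage markers, Cd68 and Fcer1g rose in edgeR and 4 in DESeq2, and of 8 fibroblast markers none passed edgeR's test or DESeq2's, with 1 higher and 1 lower at an unadjusted p-value under 0.05. Erg, Cdh5, Cd68 and Fcer1g were likewise named after their values were seen. The part of these cell types in the results was not tested. Leaving out GapmeR 3 left the counts of basement membrane genes that rose or fell as they were. Leaving out GapmeR 3 and 4 together left 1 gene that rose in place of 2, where over all genes 4458 rose in place of 4625. Mural cell and macrophage markers summed above both controls in all 4 GapmeR samples, so leaving out these samples cannot show the part of those cell types.

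Treatment with the Gm39822 GapmeR moved the basement membrane genes in both directions. The collagen IV chains Col4a1 and Col4a2, the laminin beta1 chain Lamb1 and fibronectin Fn1 fell, by between 1.22-fold for Col4a1 and 1.83-fold for Col4a2. The laminin alpha chains Lama4 and Lama5 rose, by 1.63-fold and 1.23-fold. Lamc1, Nid1, Nid2 and Hspg2 did not pass the test. These calls rest on edgeR's quasi-likelihood test at a false discovery rate of 0.05, adjusted across the 18234 genes that were tested. All 10 genes passed the filter of at least 5 counts in at least 2 samples.

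Against this stands a broad response of the cells, in which 45.3% of all genes tested passed. Of all genes tested, 25.4% were higher, beside 2 of the 10 basement membrane genes, and 20.0% were lower, beside 4 of the 10. Among the 10142 genes with a mean of at least 5 CPM, 22.8% were higher and 29.0% lower, while of the 9 basement membrane genes at this level 2 were higher and 4 lower. The median log2 fold change of the 10 genes was -0.09, and that of all genes tested was 0.03. In 2 of the 10 genes all GapmeR samples lay above both negative controls and in 5 all lay below, where 31.9% and 27.3% of all genes tested did so and 59.2% did not overlap in either direction. Past a 1.5-fold change were 1 gene that rose, Lama4, where 17.8% of all genes tested did, and 2 that fell, Col4a2 and Lamb1, where 7.62% did. Scaled by library size only, 33.5% of all genes were higher and 11.7% lower, and 3 of the basement membrane genes were higher and 3 lower. The 10 genes together held 0.388% to 0.442% of all counts after the GapmeR and 0.467% and 0.490% with the negative control, so that the GapmeR samples lay below both controls. GapmeR 2 was the lowest GapmeR sample in 9 of the 10 genes, all but Nid2.

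**Figure D1:**
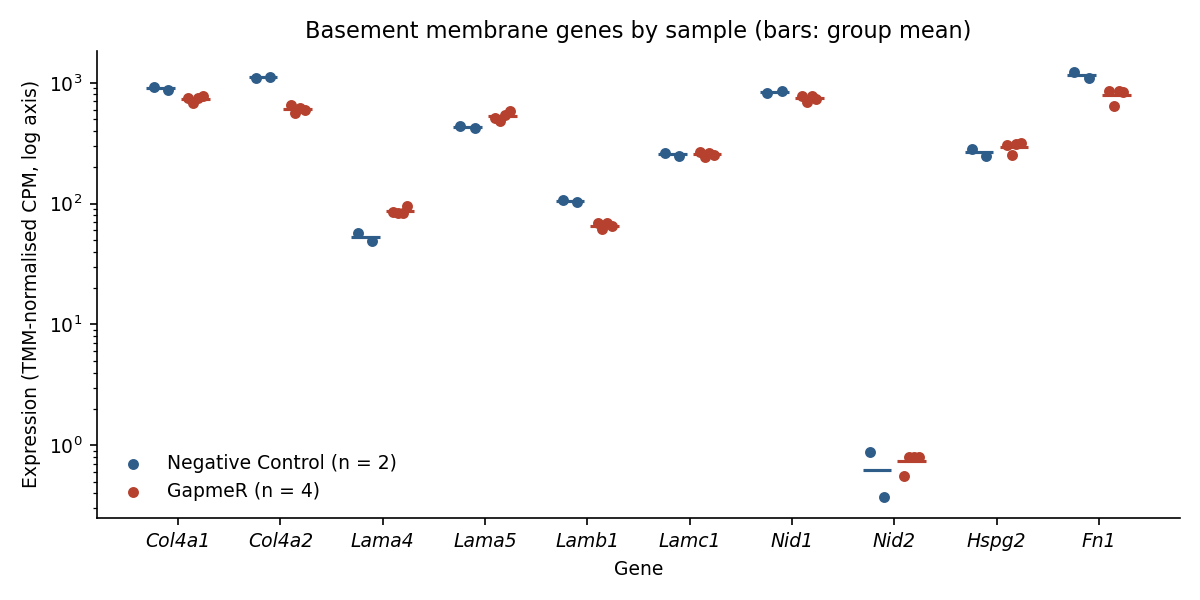
Expression of the 10 basement membrane genes in TMM-normalised CPM on a log axis, with 1 point per sample (blue, 2 negative controls; red, 4 GapmeR samples) and a bar at each group mean. Col4a2, Lamb1 and Fn1 lie lower and Lama4 higher after the GapmeR, Lamc1 is at 256 CPM in both groups, and Nid2 lies below 1 CPM in every sample.

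Collagen IV is the scaffold of the sheet, and its Col4a1 and Col4a2 chains are encoded head to head on chromosome 8. Col4a1 (ENSMUSG00000031502) lies on the reverse strand at chr8:11198423-11312889 of mm10 and Col4a2 (ENSMUSG00000031503) on the forward strand at chr8:11312805-11449287, with coordinates from RefSeq. Their promoter windows in RefSeq (GRCm38.p6), which run from 250 bases before to 50 bases after an annotated start, are shown because both genes fell and because the windows overlap: the start sites used are 21 bases apart, and 78 bases, at chr8:11312777-11312854, lie in both windows. These shared bases are in capitals, and each window is read 5′ to 3′ on the strand of its own gene, so that the capitals of the one are the reverse complement of those of the other.
Col4a1: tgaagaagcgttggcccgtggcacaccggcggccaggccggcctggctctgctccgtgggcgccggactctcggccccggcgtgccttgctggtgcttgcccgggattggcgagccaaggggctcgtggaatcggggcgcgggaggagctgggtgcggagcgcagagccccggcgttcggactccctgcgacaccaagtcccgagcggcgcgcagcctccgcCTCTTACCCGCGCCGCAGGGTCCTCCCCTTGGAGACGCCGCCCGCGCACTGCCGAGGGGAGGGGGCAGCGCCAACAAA
Col4a2: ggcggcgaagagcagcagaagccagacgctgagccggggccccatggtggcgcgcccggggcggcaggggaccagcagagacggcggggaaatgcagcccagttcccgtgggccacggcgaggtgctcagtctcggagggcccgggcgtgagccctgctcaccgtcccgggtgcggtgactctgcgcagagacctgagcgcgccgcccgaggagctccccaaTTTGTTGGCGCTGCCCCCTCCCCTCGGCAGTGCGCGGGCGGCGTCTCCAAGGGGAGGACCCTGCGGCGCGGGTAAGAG

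Col4a2 had the largest fall of the 10 genes. Its level was 651, 565, 615 and 595 CPM after the GapmeR (samples 1 to 4) and 1104 and 1112 CPM with the negative control. Every GapmeR sample was thus far below both controls, which were nearly alike. The mean was 607 ± 36.1 against 1108 ± 5.14 CPM, a log2 fold change of -0.87 (standard error 0.08, edgeR adjusted p = 1.44e-07).

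Col4a1, its partner chain, had 751, 675, 753 and 778 CPM after the GapmeR (samples 1 to 4) and 926 and 879.5 CPM with the negative control. The groups did not overlap, but the gap between them was much smaller than that of Col4a2. For Col4a1 the log2 fold change came to -0.29 (standard error 0.08, edgeR adjusted p = 0.00709). This call was lost with scaling by library size only (log2 fold change -0.14, edgeR adjusted p = 0.138), without negative control 1 (-0.23, edgeR adjusted p = 0.129) and without negative control 2 (-0.30, edgeR adjusted p = 0.0550).

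The ratio of Col4a1 to Col4a2 counts within a library, which does not depend on its scaling, was 1.15, 1.19, 1.22 and 1.31 after the GapmeR (samples 1 to 4) and 0.839 and 0.791 with the negative control. Per kb of transcript, Col4a1 was 0.831 ± 0.0344 (SD, n = 2) of Col4a2 in the negative controls and 1.24 ± 0.0670 (SD, n = 4) of it after the GapmeR. All GapmeR samples lay above both controls (1.5-fold, 2-sided exact permutation test over the 15 splits, p = 0.0667, the smallest this design allows, and 0.10 after adjustment over the 3 ratios tested). The exons of the 2 genes share 311 bases on opposite strands in the GENCODE annotation of GRCm39.

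Laminin trimers take 1 chain of each kind, and laminins of the endothelium carry alpha4 or alpha5 with beta1 or beta2 and gamma1. Lama4 (ENSMUSG00000019846, chr10:38965515-39110188, forward strand), which encodes the alpha4 chain, had 85.2, 83.4, 84.3 and 94.9 CPM after the GapmeR (samples 1 to 4) and 57.3 and 49.3 CPM with the negative control. All GapmeR samples were above both controls, and GapmeR 4 was the highest. Lama4 rose from 53.3 ± 5.65 to 87.0 ± 5.36 CPM, or by a log2 fold change of 0.71 (standard error 0.08, edgeR adjusted p = 4.46e-06). Its exons share 806 bases with Fam229b and 1210 with the non-coding Gm67873, both on the other strand in the GRCm39 annotation, and the strand setting of the counting was not given in the sources used here.

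Lama5 (ENSMUSG00000015647, chr2:180176373-180225904, reverse strand) encodes alpha5, the larger of the endothelial alpha chains. It had 512, 485, 537 and 585 CPM after the GapmeR (samples 1 to 4) and 439.8 and 420.1 CPM with the negative control. The groups did not overlap, and the lowest GapmeR sample, GapmeR 2, came nearest to the controls. The rise was 0.30 on the log2 scale (standard error 0.08, edgeR adjusted p = 0.00812), and it did not pass without negative control 2 (0.29, edgeR adjusted p = 0.0881) or without GapmeR 3 and 4 (0.24, edgeR adjusted p = 0.0671).

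Lamb1 (ENSMUSG00000002900, chr12:31265146-31329644, forward strand), for the beta1 chain, went the other way. Its level was 68.7, 61.2, 68.6 and 64.7 CPM after the GapmeR (samples 1 to 4) and 106 and 104 CPM with the negative control, so all GapmeR samples were well below both controls. It fell from 105 ± 1.64 to 65.8 ± 3.61 CPM, or by a log2 fold change of -0.68 (standard error 0.07, edgeR adjusted p = 1.13e-06).

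Lamc1 (ENSMUSG00000026478, chr1:153218922-153332786, reverse strand), for the gamma1 chain that these laminins have in common, had 266, 243, 262 and 253 CPM after the GapmeR (samples 1 to 4) and 264 and 249 CPM with the negative control. The groups overlapped. The log2 fold change was 0.00 (-0.002, 95% interval -0.16 to 0.15, edgeR adjusted p = 0.985), so that a change in either direction of the size seen for Lama4 or Lamb1 lies outside the interval. Scaled by library size only it was 0.15.

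**Figure D2:**
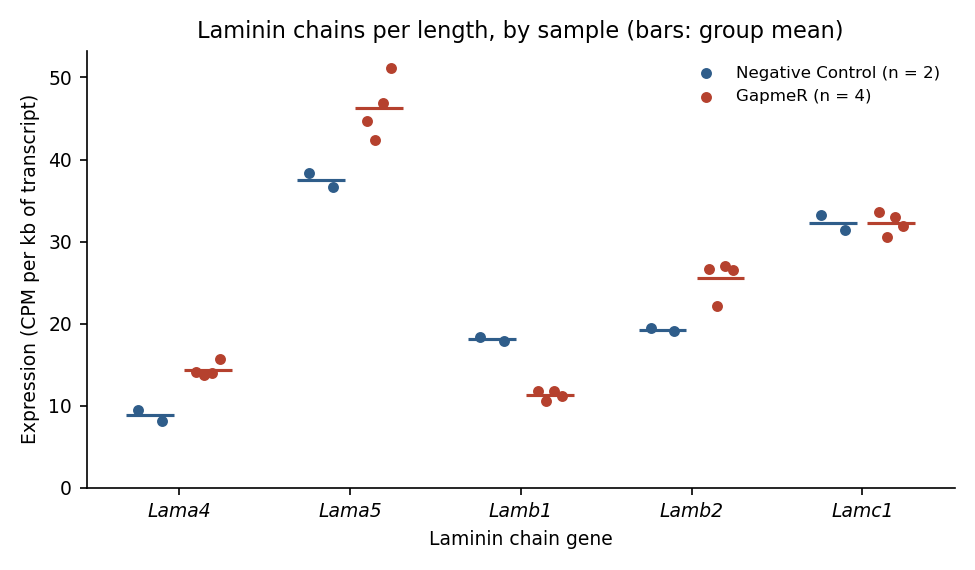
Expression of the laminin chain genes in CPM per kb of the canonical transcript, with 1 point per sample (blue, 2 negative controls; red, 4 GapmeR samples) and a bar at each group mean. Lama4, Lama5 and Lamb2 lie higher after the GapmeR and Lamb1 lower, while Lamc1 has a mean of 32.3 CPM per kb in both groups.

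Lamb2, which encodes the beta2 chain that can take the place of beta1, was on the list of other basement membrane genes and rose from 109 ± 1.22 to 144 ± 12.9 CPM, or by a log2 fold change of 0.41 (standard error 0.09, edgeR adjusted p = 9.75e-04). The ratio of Lamb2 to Lamb1 counts was 2.19, 2.05, 2.22 and 2.31 after the GapmeR (samples 1 to 4) and 1.03 and 1.04 with the negative control, so every GapmeR sample stood far above both controls. This ratio was chosen after its values were seen and was not tested. Summed per kb, both beta chains came to 37.0 ± 2.86 CPM per kb (SD, n = 4) after the GapmeR and 37.4 ± 0.500 CPM per kb (SD, n = 2) in the negative controls. The alpha chains together came to 60.7 ± 4.53 CPM per kb (SD, n = 4) and 46.4 ± 2.15 CPM per kb (SD, n = 2), and Lamc1 to 32.3 ± 1.31 CPM per kb (SD, n = 4) and 32.3 ± 1.35 CPM per kb (SD, n = 2).

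Within the alpha chains, the ratio of Lama4 to Lama5 counts was 0.166, 0.172, 0.157 and 0.162 after the GapmeR (samples 1 to 4) and 0.130 and 0.117 with the negative control. Lama4 thus gained on Lama5 in all GapmeR samples (1.33-fold, 2-sided exact permutation test, p = 0.0667, and 0.10 after adjustment over the 3 ratios). Per kb, Lama5 remained the more abundant alpha chain in every sample, with 46.3 ± 3.71 CPM per kb against 14.4 ± 0.886 CPM per kb of Lama4 after the GapmeR (SD, n = 4).

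The promoter windows of Lama5 and Lamb1 are shown as laminin chains that moved in opposite directions, with the GC box letters GGGCGG, on either strand, in capitals. Windows were matched for 6 of the 10 genes, Col4a1, Col4a2, Lama5, Lamb1, Nid1 and Hspg2, and not for Lama4, Lamc1, Nid2 and Fn1. Lama5 (chr2:180225810-180226109, reverse strand) held 4 such matches and Lamb1 (chr12:31265043-31265342, forward strand) 2.
Lama5: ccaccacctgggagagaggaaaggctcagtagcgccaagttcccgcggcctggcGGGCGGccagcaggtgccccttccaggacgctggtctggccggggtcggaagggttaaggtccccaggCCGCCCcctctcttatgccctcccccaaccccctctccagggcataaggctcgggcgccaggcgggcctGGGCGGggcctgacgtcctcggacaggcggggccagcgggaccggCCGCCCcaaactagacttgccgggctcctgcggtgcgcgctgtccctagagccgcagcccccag
Lamb1: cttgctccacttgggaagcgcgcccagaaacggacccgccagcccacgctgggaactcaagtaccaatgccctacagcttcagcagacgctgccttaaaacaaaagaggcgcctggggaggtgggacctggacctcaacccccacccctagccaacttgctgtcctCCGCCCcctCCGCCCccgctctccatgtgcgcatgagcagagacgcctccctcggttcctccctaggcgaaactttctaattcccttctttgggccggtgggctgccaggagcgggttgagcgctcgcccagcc

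At least 1 GC box was found in all 6 windows, from 1 in Col4a1 and Nid1 to 5 in Hspg2, and in 35.7% of the 32851 windows in the table. The letters CCAAT, on either strand, were in 4 of the 6 windows (Col4a1, Col4a2, Lamb1 and Nid1) and in 37.4% of all. The letters TATAAA and CACGTG were in none of the 6 and in 13.6% and 7.15% of all windows. The 6 windows had a GC content of 63.7% to 74.0%. These matches are a description of the letters and no evidence of binding.

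**Figure D3:**
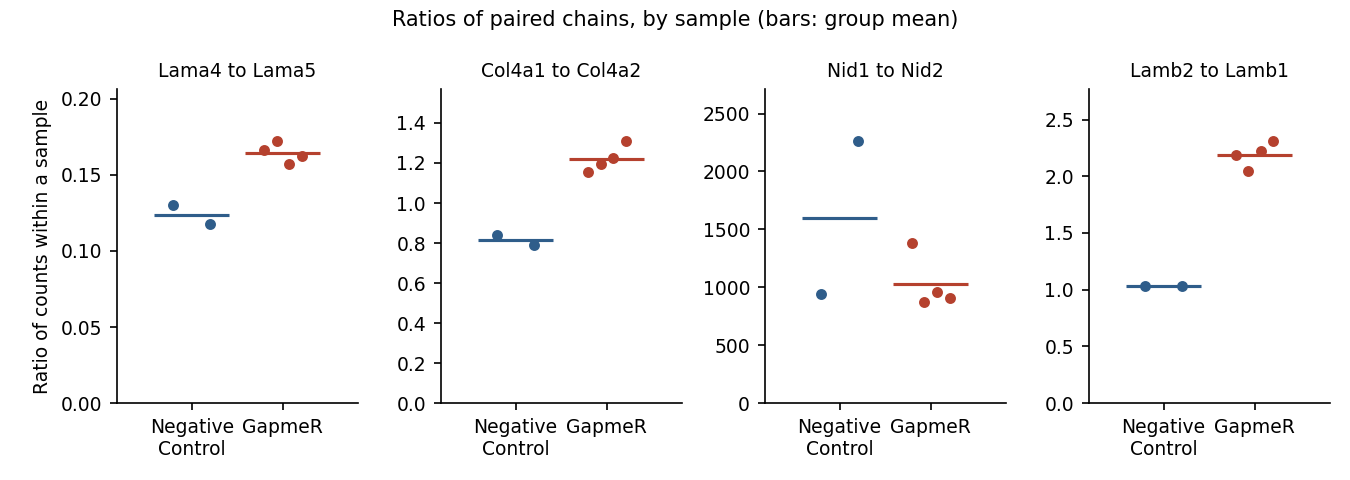
Ratio of counts of paired genes within each sample, with 1 point per sample and a bar at each group mean (blue, 2 negative controls; red, 4 GapmeR samples). Lama4 to Lama5, Col4a1 to Col4a2 and Lamb2 to Lamb1 are higher in all GapmeR samples than in both controls, and Nid1 to Nid2 overlaps between the groups.

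The nidogens link the laminin and collagen IV networks. Nid1 (ENSMUSG00000005397, chr13:13437602-13512275, forward strand) had 776, 696, 770.4 and 732 CPM after the GapmeR (samples 1 to 4) and 826 and 849.6 CPM with the negative control. All GapmeR samples were below both controls, but the log2 fold change of -0.17 (95% interval -0.33 to -0.01) did not pass adjustment (edgeR adjusted p = 0.0768). Scaled by library size only it was -0.02.

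Nid2 (ENSMUSG00000021806, chr14:19751257-19811787, forward strand) was barely expressed, with 19, 31, 25 and 26 counts after the GapmeR (samples 1 to 4) and 24 and 12 with the negative control. The groups overlapped, and the log2 fold change of 0.27 had a 95% interval of -0.52 to 1.05 (edgeR adjusted p = 0.584), so a difference was not detectable at this depth. Its exons also share 767 bases with Rtraf on the other strand. Nid1 counts were 874 to 1385 times those of Nid2 after the GapmeR and 943 and 2260 times with the negative control (2-sided exact permutation test, p = 0.267).

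Perlecan, encoded by Hspg2 (ENSMUSG00000028763, chr4:137468751-137570630, forward strand), carries heparan sulfate chains that hold growth factors in the matrix. Its level was 304, 252, 309 and 318 CPM after the GapmeR (samples 1 to 4) and 282 and 248 CPM with the negative control. GapmeR samples 1, 3 and 4 were above both controls and GapmeR 2 lay between them. The log2 fold change was 0.16 (95% interval -0.04 to 0.36, edgeR adjusted p = 0.189). Without GapmeR 2 it was 0.23 (edgeR adjusted p = 0.00806) and scaled by library size only 0.31 (edgeR adjusted p = 0.0140), both of which passed.

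Fibronectin, encoded by Fn1 (ENSMUSG00000026193, chr1:71585473-71653280, reverse strand), binds integrins and collagens and was the most abundant of the 10 genes by mean CPM. It had 859, 641, 853 and 833 CPM after the GapmeR (samples 1 to 4) and 1229 and 1101 CPM with the negative control. All GapmeR samples were below both controls, and GapmeR 2 was clearly lower than the other GapmeR samples. Fn1 fell from 1165 ± 90.4 to 796 ± 104 CPM, or by a log2 fold change of -0.55 (standard error 0.11, edgeR adjusted p = 8.29e-04), and without GapmeR 2 it was -0.45 (edgeR adjusted p = 2.10e-05).

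**Figure D4:**
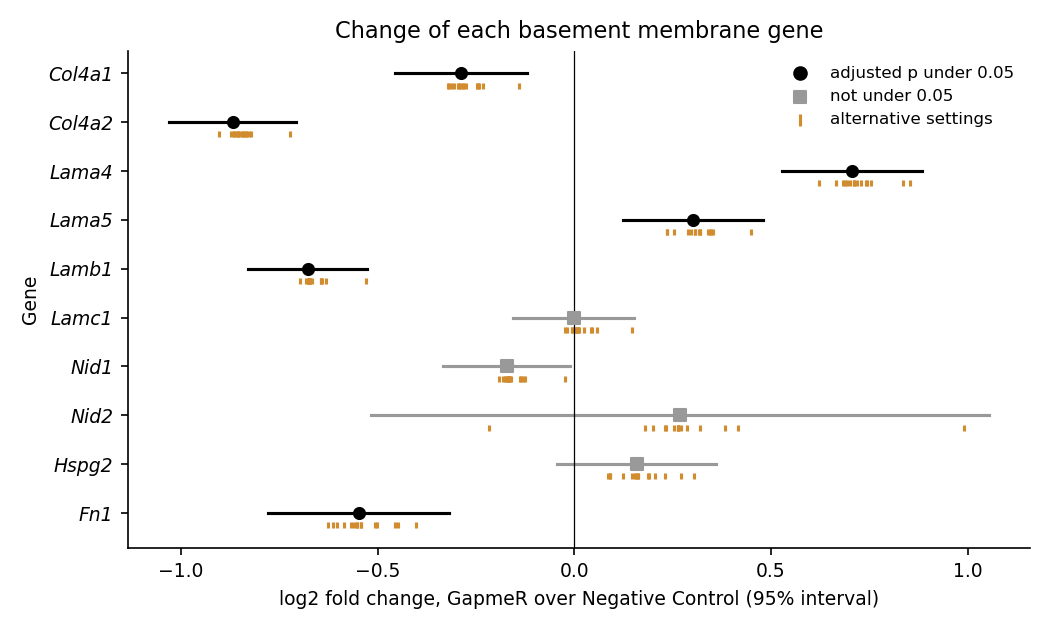
Log2 fold change of each basement membrane gene, GapmeR over negative control, with its 95% interval (black circles, edgeR adjusted p under 0.05; grey squares, not under 0.05). Orange ticks are the values under the alternative settings; Col4a2, Lama4, Lamb1 and Fn1 stay on 1 side of 0 and apart from it, while those of Lamc1 and Nid2 fall on both sides.

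Set against transcript length, the order of the genes also differed between the groups. In the negative controls Col4a2 was highest, at 164 ± 0.762 CPM per kb (SD, n = 2), followed by Fn1 at 138 ± 10.7, Nid1 at 137 ± 2.69 and Col4a1 at 137 ± 5.02, which did not differ beyond their spread. After the GapmeR, Nid1 at 122 ± 6.12 CPM per kb and Col4a1 at 112 ± 6.76 led (SD, n = 4), and Fn1 at 94.7 ± 12.4 and Col4a2 at 89.9 ± 5.35 followed within each other's spread. Below these, Lama5 and Lamc1 kept their order in both groups. Hspg2 at 18.3 ± 1.65 and Lamb1 at 18.2 ± 0.283 CPM per kb were level in the negative controls (SD, n = 2), whereas Hspg2 had 20.4 ± 2.07 and Lamb1 11.3 ± 0.622 CPM per kb after the GapmeR (SD, n = 4). Lama4 lay below Lamb1 in the negative controls and above it after the GapmeR.

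Other proteins of the basement membrane moved in both directions. Of 33 further genes, 27 could be tested, of which 9 were lower and 6 higher (edgeR). Over all genes tested, 20.0% were lower and 25.4% higher. The median log2 fold change of the 27 further genes was -0.14, beside 0.03 over all genes tested. The largest changes among those with a mean of at least 5 CPM were falls of Ntn4, a netrin that binds laminins, with a log2 fold change of -1.13, of the short-chain collagen Col8a1 (-1.0) and of the endothelial matrix glycoprotein Mmrn2 (-0.48), and the rise of Lamb2. Sparc, a collagen-binding matricellular protein and 1 of the 2 most abundant, fell from 3216 ± 246 to 2645 ± 244 CPM, with an edgeR adjusted p = 0.0215. The other, the secreted endothelial protein Egfl7, rose from 2467 ± 148 to 2870 ± 172 CPM, with an edgeR adjusted p = 0.0480 that is close to the threshold. The balance turned in some alternatives. Scaled by library size only, 6 were higher and 4 lower, and past a 1.5-fold change 3 were higher and 2 lower. Those 3 were Col4a4, Fbln1 and Col8a2, with means of 0.364, 1.37 and 0.435 CPM, named after their values were seen. Col4a4 and Col8a2 passed the filter only through the GapmeR samples, where they were higher. Of the 14 further genes with a mean of at least 5 CPM, 3 were higher and 9 lower, beside 22.8% and 29.0% of all genes at this level.

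Collagen chains are hydroxylated, glycosylated and folded in the endoplasmic reticulum before export. Of 27 genes for these steps and for cross-linking, 12 were lower and 3 higher (edgeR), with a median log2 fold change of -0.20. These counts stand beside 20.0% lower and 25.4% higher over all genes tested. At a mean of at least 5 CPM, 11 of 20 were lower and 1 higher, beside 29.0% and 22.8% of all genes at this level. P4ha1, a subunit of the prolyl 4-hydroxylase, had 113, 111, 113 and 113 CPM after the GapmeR (samples 1 to 4) and 191 CPM in both negative controls, a log2 fold change of -0.77 (standard error 0.06, edgeR adjusted p = 9.68e-08). The prolyl 3-hydroxylase P3h2 (-0.81), the lysyl hydroxylase Plod1 (-0.72) and the collagen galactosyltransferase Colgalt1 (-0.66) fell by similar amounts. Of the 2 most abundant genes, P4hb, the other subunit of prolyl 4-hydroxylase, fell by 0.32 on the log2 scale (edgeR adjusted p = 0.00253), and the collagen chaperone Serpinh1 had a log2 fold change of -0.09 (edgeR adjusted p = 0.375). The 3 genes that rose, named after their values were seen, were Sec24d, of the vesicle coat that exports collagen, at 0.30, P3h4 at 0.57 and P4ha3, which had 3 to 7 counts after the GapmeR and 0 and 1 with the negative control, and so passed the filter only through the group where it was higher. Scaled by library size only, 6 rose.

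Cells hold on to the sheet through integrins and other receptors. Of 19 receptor genes, all tested, 11 fell and 5 rose (edgeR), where 20.0% of all genes tested fell and 25.4% rose. At a mean of at least 5 CPM, 11 of 17 receptor genes fell and 5 rose, beside 29.0% and 22.8% of all genes at this level. The median log2 fold change of the receptor genes was -0.31. Itga3, whose product pairs with integrin beta1 and binds laminins, was the most abundant of them and had 798, 620, 825 and 740.0 CPM after the GapmeR (samples 1 to 4) and 1557 and 1564 CPM with the negative control. All GapmeR samples were far below both controls, a log2 fold change of -1.07 (standard error 0.10, edgeR adjusted p = 3.50e-07). Itgb1, the shared beta1 subunit, fell by 0.47 on the log2 scale (edgeR adjusted p = 6.82e-05). Itga1, of a collagen IV receptor, fell from 11.4 ± 0.676 to 3.36 ± 0.240 CPM, while Itga2, of another collagen receptor, rose from 4.39 ± 0.188 to 8.10 ± 1.13 CPM. Itgb5 rose by 1.27 on the log2 scale (standard error 0.42, edgeR adjusted p = 0.0493). It had 4.66, 4.19, 8.93 and 8.76 CPM after the GapmeR (samples 1 to 4) and 3.36 and 2.16 CPM in the negative controls. GapmeR 3 and 4, which also had more counts on macrophage markers, were thus the highest. A link between Itgb5 and these markers was not tested. The other receptor genes that rose, named after their values were seen, were Itgav (0.28), Bcam (0.29), a receptor for laminin alpha5 whose groups overlapped, and Ddr1 (0.41), a collagen receptor kinase. Without GapmeR 1 or without GapmeR 4, 3 receptor genes in place of 5 rose. Over all genes, 4378 and 4238 rose in these fits, in place of 4625.

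The heparan sulfate chains of perlecan and other proteoglycans are made by a series of Golgi enzymes. Of 18 genes for this pathway and for extracellular sulfatases, 10 were lower and none was higher in edgeR. Among all genes tested, 20.0% were lower and 25.4% higher. At a mean of at least 5 CPM, 10 of 15 were lower and none was higher, beside 29.0% and 22.8% of all genes at this level. The median log2 fold change of the 18 genes was -0.34. None of them was higher at an unadjusted p-value under 0.05 or in DESeq2, while scaled by library size only 2 were. The polymerase subunit Ext2, the most abundant, fell from 191 ± 13.4 to 105 ± 5.29 CPM, or by a log2 fold change of -0.86 (standard error 0.07, edgeR adjusted p = 1.02e-07). Hs3st1, a 3-O-sulfotransferase (-1.05), B3gat3, which completes the linker to the core protein (-0.78), and Extl2 (-0.72) fell as well. The next most abundant, the extracellular sulfatase Sulf2, had 126 ± 8.92 and 121 ± 5.84 CPM, with a log2 fold change of 0.06 (edgeR adjusted p = 0.585).

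Matrix of the interstitium rather than of the basement membrane was mostly weakly expressed. Of 24 genes, 22 could be tested, of which 4 were lower and 1, the elastin gene Eln, was higher (edgeR). Lower and higher were 20.0% and 25.4% of all genes tested. The median log2 fold change of the 22 genes was 0.39, and it was -0.10 over the 7 with a mean of at least 5 CPM. Among these 7, Col1a1 and Col1a2, named after their values were seen, reached that mean only through GapmeR 3. Tenascin C, encoded by Tnc, was the most abundant and had 1138, 907, 1076 and 1025 CPM after the GapmeR (samples 1 to 4) and 2479 and 2542 CPM with the negative control. It was lower in all GapmeR samples, at a log2 fold change of -1.28 (standard error 0.09, edgeR adjusted p = 7.20e-09). Thrombospondin 1, encoded by Thbs1 (-0.92), and Ccn2 (-0.50), listed in the file as Ctgf, also fell, whereas Ccn1, listed as Cyr61, had a log2 fold change of 0.10 (edgeR adjusted p = 0.534). The fourth gene counted as lower, Vcan, had 2 to 10 counts after the GapmeR and 10 and 23 with the negative control, and passed the filter only through the controls, where it was higher. Eln and Vcan were named after their values were seen. Col1a1, named in the same way, had 2.21, 3.24, 38.0 and 4.58 CPM after the GapmeR (samples 1 to 4) and 1.68 and 2.82 CPM with the negative control, so GapmeR 3 stood apart in it as it did in the fibroblast markers, of which it is one.

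**Figure D5:**
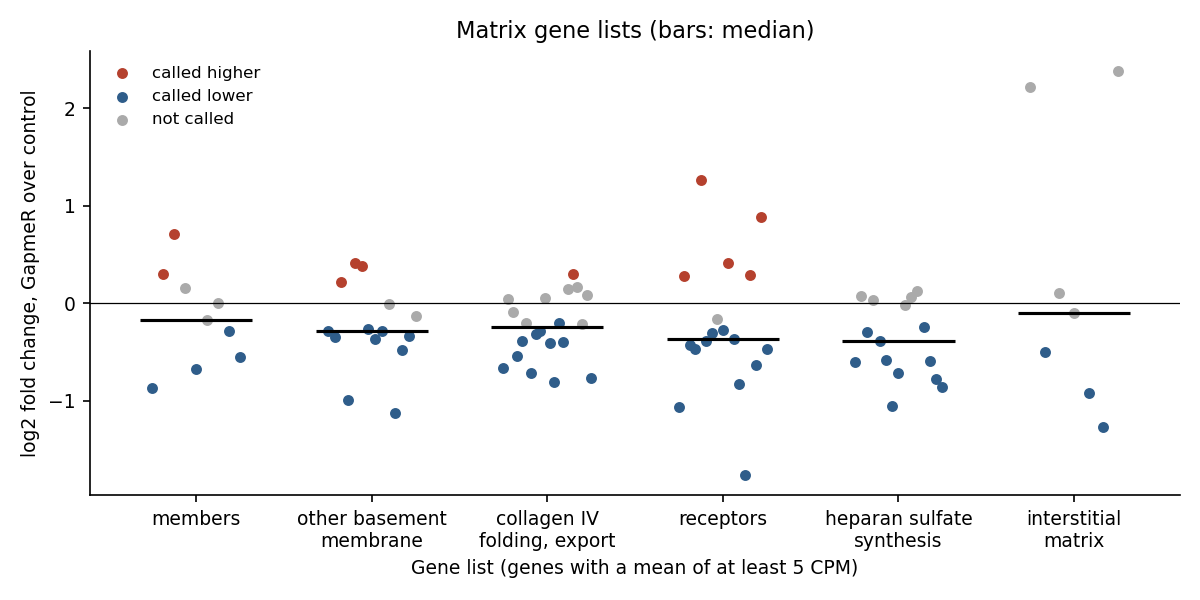
Log2 fold changes of the genes with a mean of at least 5 CPM in the 10 basement membrane genes and in the other lists, with 1 point per gene and a bar at the median (red, higher; blue, lower, both with an edgeR adjusted p under 0.05; grey, not under 0.05). The medians lie between -0.10 for interstitial matrix and -0.39 for heparan sulfate synthesis, beside -0.05 for all 10142 genes at this level. Col1a1 and Col1a2, in the interstitial list, reach a mean of 5 CPM only through GapmeR 3.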

How the data were processed

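Raw counts per Ensembl gene were deposited by the authors, unfiltered and not normalized. Per the labels and the methods of the study, paired reads from ribosome-depleted RNA libraries were trimmed (Trimmomatic 0.36), aligned to mm10 (STAR 2.5.2b) and run through bcbio-nextgen. Subread 1.5.2 is named in the submitters' processing notes without a role, and the strand setting is not given in the sources used here, so reads of overlapping genes may be shared or lost. Exons of 9 of the 10 genes, all but Lamc1, share 12 to 1210 bases with an annotated gene on the other strand (GENCODE M39, GRCm39).

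Samples were grouped by their titles. The study gives 4 samples for each group, whereas 4 GapmeR and 2 negative control samples were analysed here. There was 1 further column of counts, headed like those of the negative controls. No sample record names it, and it was not used. A gene was kept if 2 or more samples had 5 or more counts, scaled by TMM and tested with edgeR 4.0.16 in R 4.3.3 (robust quasi-likelihood test, Benjamini-Hochberg adjustment over all 18234 genes). Standard errors are the log2 fold change divided by the square root of F. CPM per kb uses the length of the canonical GENCODE transcript. Ratios of counts were compared with exact permutation tests. Limits of 3 counts were 0.0771 to 0.110 CPM and cover counting error only. Replicates differed by more than sampling noise (chi-square per degree of freedom 5.87 to 28.0). The code was tested on simulated data.

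The 10 genes and all lists were chosen with earlier results of these data known. Named were all 10 genes, Gm39822 and, of each other list, the 2 most abundant genes and up to 4 with the largest change among those with an adjusted p-value under 0.05 and a mean of at least 5 CPM. All 174 list entries were matched to an identifier. Alternatives were DESeq2 1.42.0's size factors and Wald test, library size only, 2 filters, a 1.5-fold threshold, loess curves (span 0.3) on GC content and on transcript length (17965 of the 18234 genes), a replicate block and leaving out samples. Leaving out GapmeR 3 and 4 together was added after seeing the data.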

Additional observations from a re-analysis of the deposited data

Results flagged for a closer look

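In the 4 GapmeR samples of each basement membrane gene and ratio, 13 sets of values were checked for 1 sample that stands apart from the other 3 by Dixon's ratio at its 95% critical value, which chance passes in about 1 of 20 sets. It was passed in 4 sets. Fn1 was low in GapmeR 2, at 641 CPM, with a ratio of 0.879, and GapmeR 2 was the lowest GapmeR sample in 9 of the 10 genes. Lama4 was high in GapmeR 4, at 94.9 CPM, with a ratio of 0.842. Nid2 was low in GapmeR 1, at 0.561 CPM or 19 counts, with a ratio of 0.960, and the ratio of Nid1 to Nid2, which has Nid2 below the line, was high in the same sample, at 1385. The calls of Fn1, Lama4 and Nid2 did not change when that sample was left out.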

How the results depend on the processing

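The log2 fold changes of Col4a2, Lama4, Lamb1 and Fn1 kept their direction and their side of the threshold in all 15 alternatives. Scaling by library size only moved the median log2 fold change of all genes from 0.03 to 0.17 and the share of calls that were higher from 55.9% to 74.1%, so the changes are relative to that shift. Under this scaling 3 of the 10 genes were higher and 3 lower, Col4a1 was at -0.14 and Hspg2 at 0.31, and of the other lists 4 other basement membrane proteins were lower, 6 genes of collagen IV folding and export were higher and 2 of heparan sulfate synthesis were higher. The sign of Lamc1, at -0.002, turned to 0.0027 with DESeq2's size factors and with its Wald test, 0.15 with library size only, 0.045 with at least 10 counts in every sample, 0.042 with the length curve, 0.010 with the replicate block and 0.011 without GapmeR 3 and 4. With at least a 1.5-fold change, 1 of the 10 genes was higher and 2 lower, and the counts of higher and lower genes were 3 and 2 for other basement membrane proteins, 1 and 5 for folding and export, 2 and 4 for receptors, and 6 lower for heparan sulfate synthesis. DESeq2's Wald test and no filter each gave 2 higher interstitial matrix genes.

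Deviations of samples with the same number in their titles had correlations of -0.0907 and 0.158 across 10142 genes. With 2 controls, the deviations of the one are the opposite of those of the other, so these are not separate checks. Other pairings were not checked, so whether samples were paired cannot be told from this. With the replicate number as a block, on the 4 samples of replicates 1 and 2, 1 of the 10 genes was higher and 4 lower. Lama5 was at 0.24 (edgeR adjusted p = 0.0730). Of the other lists, 3 receptors and 1 heparan sulfate gene were higher and 8 interstitial genes were lower. All genes called came to 7812 in place of 8268, with 4517 higher in place of 4625 and 3295 lower in place of 3643. The block gave differences of 0.45, 0.53 and -0.41 for the log2 ratios of Lama4 to Lama5, Col4a1 to Col4a2 and Nid1 to Nid2. Without GapmeR 3 and 4, 1 of the 10 genes was higher, Lama5 was at 0.24, 3 receptors and 1 heparan sulfate gene were higher and 8 interstitial genes were lower. Over all genes, 4458 were then higher and 3203 lower.

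With 1 sample left out at a time, a lone control is assumed to vary like the other group, and 5232 genes were called without negative control 2 and 5791 without negative control 1. With 1 GapmeR sample left out, 2 or, without GapmeR 2, 3 of the 10 genes were higher and 4 lower. Over all genes, 4238 to 4800 were then higher and 3231 to 3949 lower, in place of 4625 and 3643. With a lone control, fewer of the 10 genes and fewer of all genes were called. Over all single omissions, log2 fold changes were -0.31 to -0.23 for Col4a1, 0.25 to 0.35 for Lama5 and 0.090 to 0.27 for Hspg2. They were -0.023 to 0.059 for Lamc1 and -0.22 to 0.99 for Nid2. The log2 ratio of Nid1 to Nid2 differed by -1.16 to 0.10. Counts were 3 to 6 higher and 4 to 9 lower for other basement membrane proteins, 1 to 4 higher for folding and export, 1 to 5 higher for receptors and 0 to 2 higher for interstitial matrix. The fewest higher genes of these lists were found without negative control 2 and the fewest lower other basement membrane proteins without negative control 1, while receptors had 3 higher without GapmeR 1, GapmeR 4 or negative control 1 and interstitial matrix 2 without GapmeR 1 or GapmeR 3. The cause of these moves was not tested. Depth limits Nid2, with 12 to 31 counts.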

Other observations

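Several chains of collagen IV and laminin that belong to other basement membranes were near the limit of detection. Col4a3 and Col4a6, which with Col4a4 and Col4a5 form the collagen IV of kidney and epithelial sheets, had at most 5 and 4 counts in any sample, and Col4a5 had 1 to 16. Col4a4 had 11 to 20 counts after the GapmeR and 7 and 2 with the negative control, and passed the filter on low counts only through the GapmeR samples. Among the laminins, Lama1 and Lama2 had at most 11 counts each and Lamb3 at most 2. Lama3 and Lamc3 were near 1 CPM in both groups.

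Fbln1, a fibulin of the basement membrane, had 1.82 ± 0.156 CPM (SD, n = 4) after the GapmeR and 0.465 ± 0.141 CPM (SD, n = 2) with the negative control. Col8a2, of the same family as Col8a1, had at most 25 counts in a GapmeR sample and at most 1 in a negative control. It thus passed the filter only through the GapmeR samples, where it was higher. These genes were named after their values were seen.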
